A study of Homo sapiens with 10 samples.

Results

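The collagen family was taken as every gene whose symbol has the form COL, a number, A and a number, and the deposited tables held 44 such genes among 57955. Of these, 33 had at least 20 raw counts in any library and are described here, while 11 stayed below 20 raw counts in every library and are called silent. The libraries came from 5 melanoma cell lines carrying a BRAF mutation, each sequenced once as the original line, sensitive to the BRAF inhibitor encorafenib combined with the MEK inhibitor binimetinib, and once as a resistant derivative (E+BRes). WM983A, WM278 and WM902B were labelled as lines of primary tumours, WM983B and WM1617 as lines of metastases. Resistance had been raised by passaging each line for 3 to 5 months in both drugs, from 1 nM up to 200 nM, and the resistant cells were then kept in 200 nM of the combination. Resistance and the presence of the drugs therefore cannot be told apart in these libraries. WM983A and WM983B came from 1 patient and WM278 and WM1617 from another, so the 5 lines stand for 3 patients, and each resistant derivative was 1 population. Messenger RNA was enriched with oligo-dT before sequencing, and protein was not measured here.

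Collagens are secreted or membrane-bound proteins in which 3 alpha chains, alike or different, wind into a triple helix in which glycine recurs at a fixed step along the chain. Fibrillar collagens assemble into the fibrils of connective tissue, type IV collagen forms the sheet of basement membranes, type VI collagen forms beaded filaments, and other members bind to fibrils, anchor epithelia or span the cell membrane. Melanoma cells make part of the matrix in which they lie, and fibroblasts of the skin supply much of the rest.

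The repeat of glycine is visible in the reference sequence of the genes. In the fibrillar members the helix is cut into many short exons of 54 bases, each of which opens on a glycine codon and holds 6 triplets of glycine followed by any 2 residues. A single such exon is shown for each of 3 fibrillar members whose counts set the lines apart. Capitals mark the glycine codon (GGN) that opens each triplet, and every other codon, glycine or not, is in lower case. The exons are read from GRCh38 in the direction of the gene. They lie in coding sequence, COL1A1 exon 8 at chr17:50197949-50198002 on the minus strand, COL5A1 exon 15 at chr9:134753850-134753903 on the plus strand and COL11A1 exon 15 at chr1:103008463-103008516 on the minus strand.
COL1A1 exon 8: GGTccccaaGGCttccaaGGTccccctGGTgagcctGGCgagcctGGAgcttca
COL5A1 exon 15: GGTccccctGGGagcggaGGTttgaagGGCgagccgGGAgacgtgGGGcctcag
COL11A1 exon 15: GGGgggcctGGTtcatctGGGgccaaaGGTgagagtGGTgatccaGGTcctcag
The unbroken run of such triplets measured 338 in each of these 3 genes, against 40 in COL4A1, whose helix is interrupted many times. Among the exons lying wholly within that run, COL1A1 had 21 of exactly 54 bases out of 41, COL5A1 29 out of 47 and COL11A1 31 out of 48.

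Library totals ran from 13693922 to 18033247 counts. Values are given as normalised counts, which are the raw counts divided by the relative size of the library after TMM scaling, and a fold against a library with 3 counts or fewer is written as a bound, taken against a floor of 3 counts that covers counting error only. With 1 library per line and state, a difference within a line has no replicate check. The markers of melanocytes separated the lines: their sum over 8 genes (MITF, SOX10, PMEL, MLANA, TYR, TYRP1, DCT and S100B) ran from 6506 to 68242 normalised counts in the sensitive libraries and from 1361 to 67146 in the resistant ones. It was lower in resistant WM983A, WM983B and WM902B by log2 ratios of -5.29, -3.86 and -3.64, close to level in WM1617 at -0.02 and higher in WM278 at 1.11. The higher sum in WM278 lay mostly in S100B (1407 to 9486 normalised counts). SOX10, PMEL and MLANA were lower in resistant WM278, and MITF, TYR, TYRP1 and DCT, though higher, stayed at 220 or fewer. All 8 fibroblast markers (DCN, LUM, PDGFRA, PDGFRB, FAP, THY1, PRRX1 and TWIST2) reached 20 normalised counts in a sensitive library, and their sum ran from 177 to 1633 in sensitive and from 178 to 6958 in resistant libraries. It was higher in resistant WM902B, WM983B, WM278 and WM1617 by log2 ratios of 2.35, 1.25, 1.11 and 0.82 and lower in WM983A at -3.19. The fibroblast markers did not move alike. PDGFRB held 4587 and PDGFRA 1581 normalised counts in resistant WM902B, PDGFRB 1263 and FAP 995 in resistant WM983B, and FAP 1125 in resistant WM278. LUM held 1164 in sensitive and 874 in resistant WM983B, and 795 in sensitive against 5.82 in resistant WM983A. PRRX1 was lower in every resistant line but WM1617, from 542 to 9.24 in WM902B and from 314 to 10.6 in WM278. DCN did not pass 67.7 normalised counts in any library, and COL1A2, which fibroblasts express together with COL1A1, did not pass 13 raw counts. Immune markers summed to 79.9 normalised counts or fewer in every library. The part of these markers in the collagen results was not tested.

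Resistance went with a different set of collagens in each line, and only a few members moved the same way throughout. In all 5 lines COL5A1 and COL18A1 exceeded their sensitive level by 2-fold or more, a pattern found in 22 of 19666 genes with 20 raw counts in any library (0.112%). By direction alone, 5.79% of genes were higher in all 5. COL25A1 was lower in all 5 lines, as were 963 of those genes (4.9%), and no member was lower by at least 2-fold in all 5 (0.0712% of genes). No member had all its resistant libraries above or below all its sensitive ones (0.447% of genes above, 0.3% below). Among the widest folds within a line were those of COL5A1 in WM983B and WM902B, COL8A1 in WM902B and COL1A1 in WM983B, and, downwards, COL9A3 in WM902B.

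**Figure D1:**
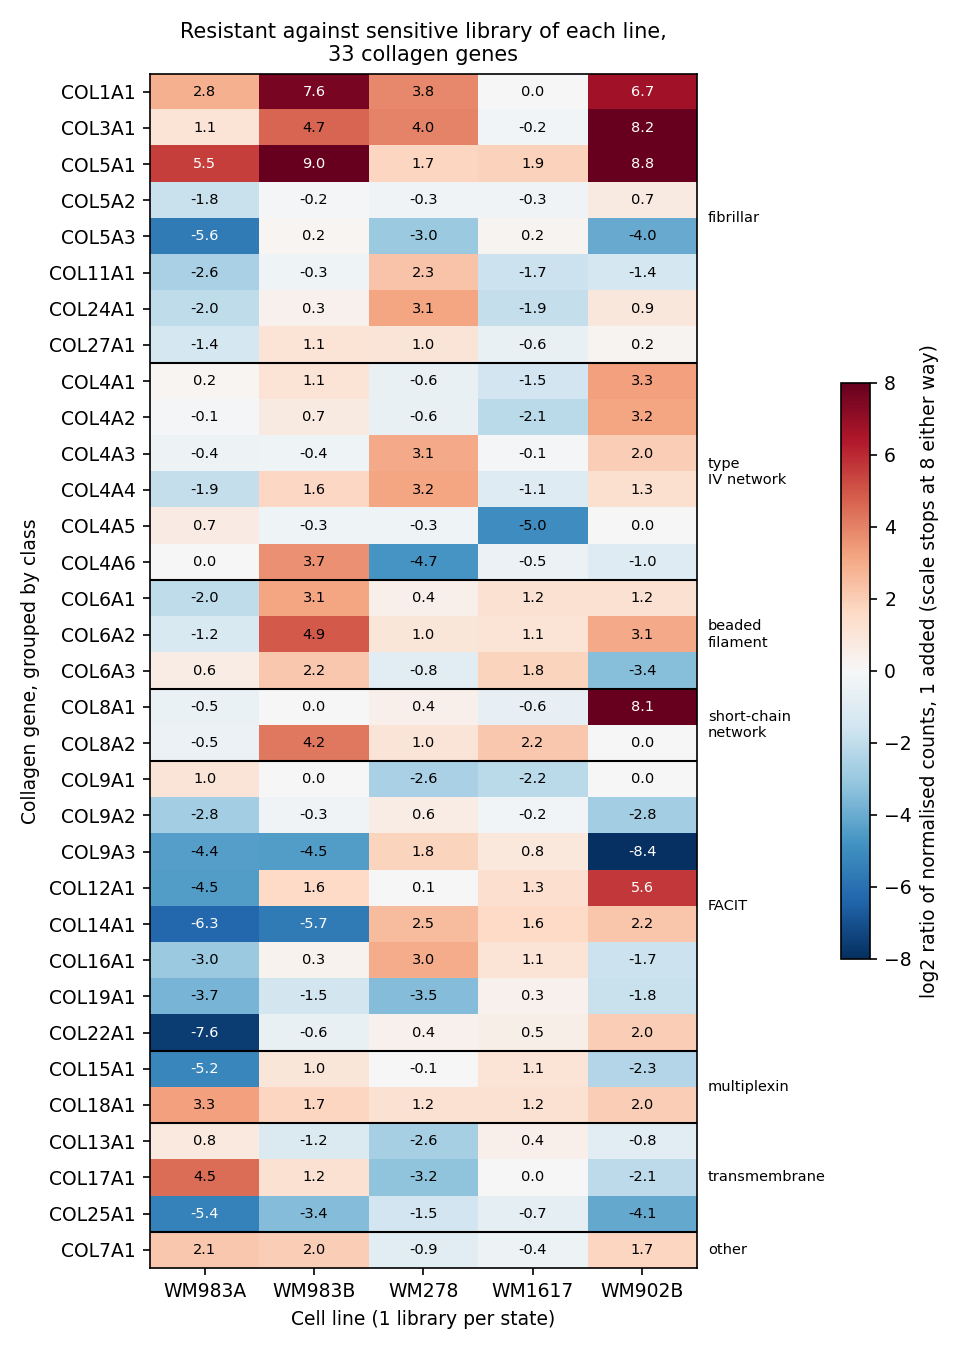
Heat map of the log2 ratio of normalised counts (1 added), resistant against sensitive library, for the 33 described collagen genes (rows, grouped by class) in the 5 cell lines (columns, 1 library per state). COL5A1 and COL18A1 are above 1 in every column, COL25A1 is below 0 in every column, and the WM983A column holds 17 members at least 2-fold lower.

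In WM983A the family was mostly lower: 17 of the 33 members were at least 2-fold lower and 7 at least 2-fold higher, where 20.2% and 20.3% of all genes with 20 counts passed those folds. COL3A1 and COL9A1 are among those 7 at 3 raw counts or fewer in both libraries, so their ratio comes from the added count. WM983B, a line of the same patient, showed the opposite balance, with 15 members higher and 5 lower (19.2% and 11.9% of all genes). In WM278 there were 13 higher and 7 lower members (14.3% and 8.18%). WM902B had 15 higher and 11 lower (17.9% and 13.5%). WM1617, in which few genes differed between the states at all, had 10 higher and 7 lower members (3.66% and 5.92%). Of the 10 and 7, 3 and 2 had fewer than 20 raw counts in both libraries, and in the other lines this held for 0 to 3 members in a direction.

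The number of members with at least 20 raw counts ran from 18 to 25 in the sensitive libraries and from 16 to 24 in the resistant ones, and 9 members reached that level in all 10 libraries. These were COL4A2, COL6A1, COL6A2, COL6A3, COL7A1, COL9A3, COL16A1, COL18A1 and COL27A1. COL4A3, COL8A2 and COL9A1 reached it in 1 library each.

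Summed over the family, collagens took 1789, 1739, 5453, 1181 and 1418 CPM (a share of the TMM-scaled library total) in sensitive WM983A, WM983B, WM278, WM1617 and WM902B. Resistant cells of these lines had 1695, 4267, 6295, 1962 and 3272 CPM. WM278 was thus the richest line in both states, and the sum was higher in the resistant library of 4 of 5 lines. The ratio was 2.45-fold in WM983B, 2.31-fold in WM902B, 1.66-fold in WM1617 and 1.15-fold in WM278, while WM983A was 1.05-fold lower. The sums are of raw counts, so long or abundant members weigh most. In WM902B the difference depended on COL9A3, without which the log2 ratio was 2.79 in place of 1.21.

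COL9A3 was the leading collagen by counts in 4 of the 5 sensitive libraries and held 66.6% of all collagen counts in sensitive WM902B, 60.2% in WM1617, 31.6% in WM983B and 23.1% in WM983A. In the resistant libraries the lead had passed to COL18A1 in WM983A (50.5%), to COL6A2 in WM983B (27.3%) and to COL1A1 in WM902B (37.7%). It stayed with COL9A3 in WM1617 (65.3%) and with COL4A2 in WM278 (33.8% in the sensitive and 19.5% in the resistant library). Per kilobase of exon the leading gene differed only in resistant WM278, where COL18A1 led at 1916 normalised counts per kilobase, ahead of COL11A1 at 1478.

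**Figure D2:**
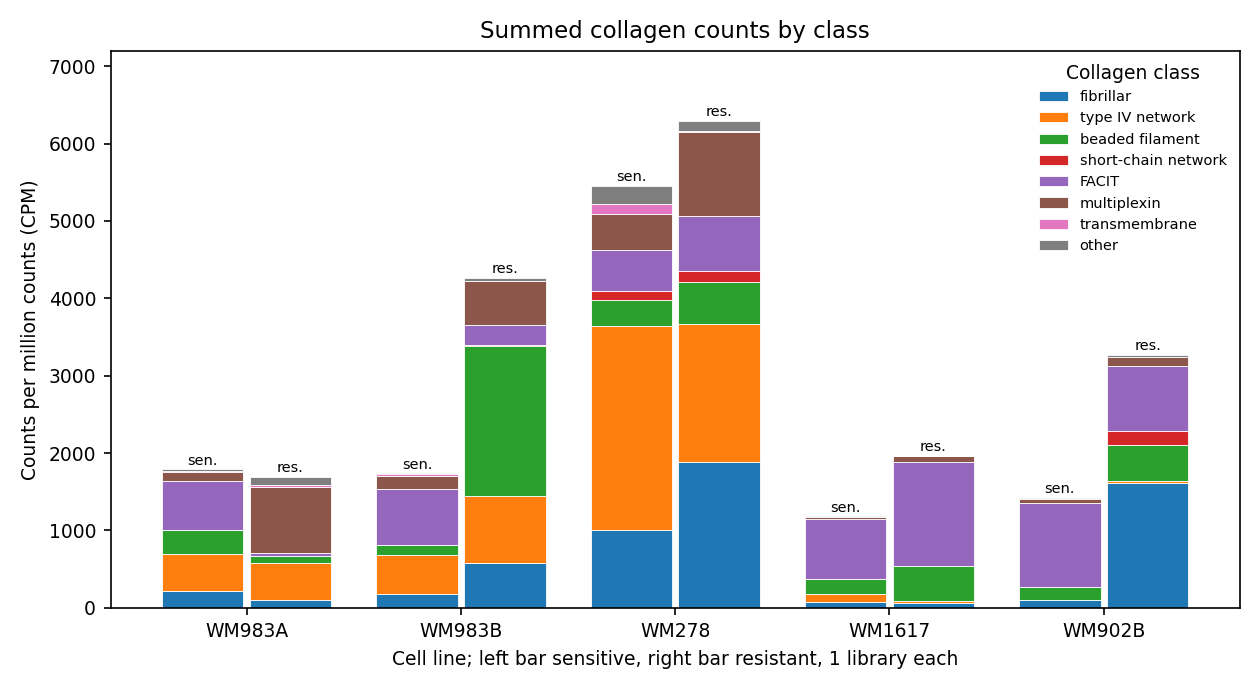
Stacked bars of summed collagen CPM (TMM scaled) by class, for the sensitive (left) and resistant (right) library of each line. The totals run from 1181 in sensitive WM1617 to 6295 in resistant WM278, with the class associated with fibrils (FACIT) smaller in resistant WM983A and the fibrillar class larger in resistant WM902B.

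Tested across the 5 lines, 3 of the 25 members that passed the expression filter were called at an unadjusted p of at most 0.05 and at least 2-fold, against 4.42% of the 17287 genes tested. COL1A1 and COL6A2 rose (3.53% of genes rose) and COL25A1 fell (0.885% fell), the last on few counts and tested only because of its sensitive libraries. No member and no gene passed after Benjamini-Hochberg adjustment in edgeR's quasi-likelihood test, where the smallest adjusted p was 0.630 and 1235 genes had an unadjusted p below 0.05. The median log2 fold change was 0.10 over the 25 members and 0.03 over all genes, with 13 members positive and 12 negative. The other 8 described members (COL3A1, COL4A3, COL4A6, COL8A2, COL9A1, COL11A1, COL14A1 and COL17A1) did not pass the filter.

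Since the states of a line share its cells of origin, the test was also run with the cell line as a block, and the calls changed. Then 5 of 25 members were called (5.53% of all genes): COL5A1, COL1A1 and COL18A1 rose and COL19A1 and COL25A1 fell, while COL6A2 was no longer called. COL5A1 was tested only because of its resistant libraries. With counts summed per patient instead, COL5A1, COL18A1 and COL19A1 were not called. The 5 calls among the 29 members tested there (5.27% of 19750 genes were called) were COL1A1, COL3A1, COL6A1, COL6A2 and COL25A1. COL3A1 had 1 raw count or fewer in every sensitive library and entered that fit only through its resistant libraries. Adjusted over all genes, none passed in edgeR with the block. DESeq2's Wald test without the block gave no p for COL1A1, COL4A5 and COL5A2. Among the other members it gave no adjusted call (0.607% of genes passed), and 5 passed unadjusted (5.21% of genes). With the block, a fit added after seeing the data, 9 members passed unadjusted (8.62% of genes) and 6 adjusted (2.95% of genes). The 6 were COL1A1, COL5A1 and COL18A1 upwards and COL5A3, COL19A1 and COL25A1 downwards. The p-values measure the spread between these 5 lines, each with 1 culture per state as far as the labels tell, and treat lines of 1 patient as separate.

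**Figure D3:**
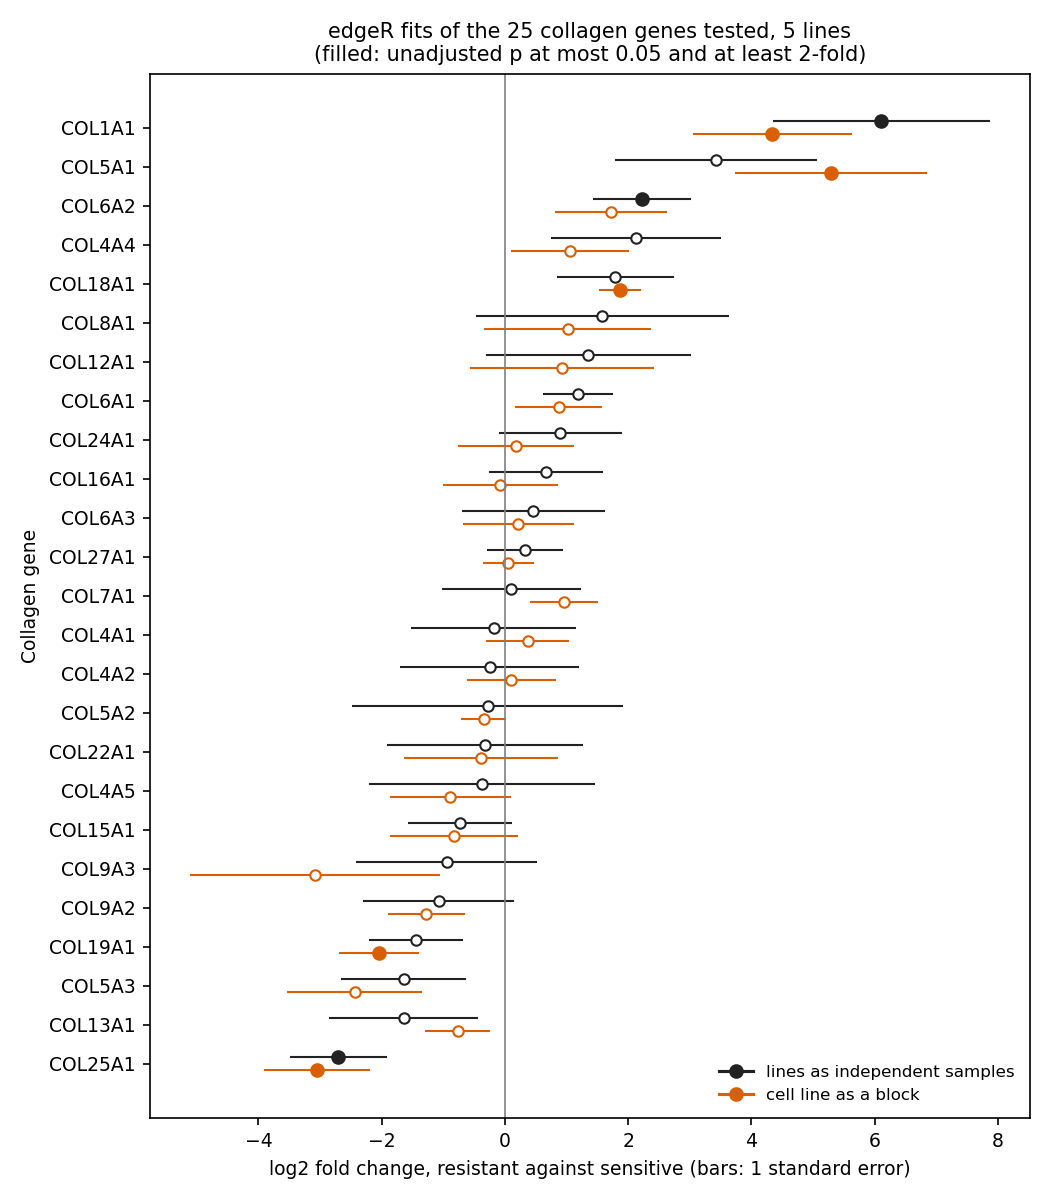
Points are edgeR log2 fold changes, resistant against sensitive, of the 25 collagen genes tested, with bars of 1 standard error, from fits that treat the 10 libraries as independent (black) or enter the cell line as a block (orange); filled points had an unadjusted p of at most 0.05 and at least 2-fold. COL1A1 and COL25A1 are filled in both fits, COL6A2 only in the first, and COL5A1, COL18A1 and COL19A1 only in the second.

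COL1A1, the alpha 1 chain of type I collagen and the main fibril former of skin and bone, lies on the minus strand of chromosome 17 from 50184101 to 50201632. Sensitive WM983A, WM983B, WM278, WM1617 and WM902B held 11.9, 6.01, 79.6, 37.9 and 173 normalised counts. Their resistant derivatives held 90.6, 1349, 1154, 37.1 and 18718, in the same order of lines. It was thus higher in 4 of 5 resistant libraries and level in WM1617, and the groups overlapped, since resistant WM1617 and WM983A lay below sensitive WM902B. The folds were 224 in WM983B, 108 in WM902B, 14.5 in WM278 and 7.64 in WM983A. COL1A1 rose across the lines by a log2 fold change of 6.11 ± 1.76 (SE, 5 lines; edgeR adjusted p = 0.630), and by 4.34 ± 1.29 with the cell line as a block (adjusted p = 0.461). Without WM902B the unblocked log2 fold change was 4.28 and was still called.

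Its usual partner chain was not seen. COL1A2, whose alpha 2 chain joins 2 alpha 1 chains in most type I collagen, had at most 13 raw counts in any library and 34.9 over all 10, also in resistant WM902B, where COL1A1 reached 18229 raw counts. COL3A1, the chain of type III collagen that accompanies type I in elastic tissues, was at or below 3 counts in every sensitive library. It was at least 93.2-fold higher in resistant WM902B, at 283 normalised counts, at least 8.03-fold in WM983B and at least 5.16-fold in WM278. COL3A1 did not pass the filter over the 10 libraries and was not tested there. With counts summed per patient it was tested through its resistant libraries and was called.

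COL5A1 encodes a chain of type V collagen, which starts and limits the growth of type I fibrils, and lies on the plus strand of chromosome 9 from 134641803 to 134844843. The study's own quantitative PCR primers for it, forward GCCCGGATGTCGCTTACAG in exon 2 and reverse AAATGCAGACGCAGGGTACAG across exons 2 and 3, bracket 80 bases of coding sequence and show where that assay reads the transcript. Sensitive WM983A, WM983B, WM278, WM1617 and WM902B held 8.50, 3.01, 929, 17.6 and 9.96 normalised counts. The resistant libraries held 438, 2073, 3086, 66.0 and 4738. Every line was higher when resistant, but sensitive WM278 alone lay above resistant WM983A and WM1617, so the groups overlapped. The fold was at least 688 in WM983B, 476 in WM902B and 51.5 in WM983A, against 3.75 in WM1617 and 3.32 in WM278. The unblocked fit gave a log2 fold change of 3.42 ± 1.64 (SE, 5 lines; edgeR adjusted p = 0.705), which was not called. At least 10 raw counts were reached in 2 sensitive and 5 resistant libraries, so COL5A1 passed the filter through the group in which it is high. With the cell line as a block it rose by 5.30 ± 1.56 (adjusted p = 0.461), and with each line left out in turn the unblocked value ran from 2.57 without WM902B to 7.53 without WM278, and was called only in the latter.

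The other chains of type V did not follow COL5A1. COL5A2, the usual second chain, held 70.8, 83.2, 10289, 4.33 and 28.4 normalised counts in sensitive WM983A, WM983B, WM278, WM1617 and WM902B. In the resistant libraries it held 20.1, 74.8, 8495, 3.46 and 47.3, so that WM278 was far above the other lines in both states. It was 3.52-fold lower in resistant WM983A and 1.66-fold higher in WM902B, and no difference across lines was called (log2 fold change -0.28 ± 2.20, edgeR adjusted p = 0.990). COL5A3, the remaining chain, was at 728, 402, 104, 99.9 and 630.3 normalised counts in the sensitive libraries and at 13.7, 449, 12.2, 115 and 37.7 in the resistant ones. It was 53.3-fold lower in WM983A, 16.7-fold in WM902B and 8.51-fold in WM278, and within 1.15-fold in WM983B and WM1617. Across all lines the change did not pass (log2 fold change -1.64 ± 1.01, edgeR adjusted p = 0.777), and without WM983B it was -3.11 and was called.

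Among the remaining fibrillar members, COL11A1, a fibril chain of cartilage, was a gene of WM278. It held 2751 normalised counts in sensitive and 13436 in resistant WM278, a 4.88-fold difference, and 5.14 or fewer in every other library. COL27A1, a fibrillar collagen with a shorter helix, was read in all libraries, at 2373, 2251, 1123, 953 and 607 normalised counts in sensitive WM983A, WM983B, WM278, WM1617 and WM902B. The resistant libraries held 887, 4706, 2249.7, 622 and 694, higher in WM983B and WM278 by about the same fold (2.09 and 2.00) and lower in WM983A by 2.68-fold (log2 fold change 0.33 ± 0.62, edgeR adjusted p = 0.943). COL24A1, of the same subgroup, did not pass 52.6 normalised counts outside resistant WM278, where it was at 127. COL2A1 and COL11A2, also cartilage chains, were silent.

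Type IV collagen, the network of basement membranes, differed more between lines than between states. COL4A1 held 2088, 1583, 11309, 565 and 14.2 normalised counts in sensitive WM983A, WM983B, WM278, WM1617 and WM902B and 2358, 3420.4, 7601, 192 and 143 in the resistant libraries. COL4A2 held 5229, 5933, 27926, 857 and 25.1, and then 4816, 9735, 18647, 192 and 232. Both were highest in WM278 in either state. They were lowest in WM902B, except that resistant WM1617 held less COL4A2. Resistant WM902B had 10.1-fold and 9.22-fold more of them than its sensitive library, and resistant WM1617 had 2.94-fold and 4.45-fold less. Neither passed the test across lines (COL4A1 log2 fold change -0.18 ± 1.34, edgeR adjusted p = 0.989, and COL4A2 -0.25 ± 1.46, adjusted p = 0.985).

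COL4A1 and COL4A2 are transcribed away from each other on chromosome 13, with the start sites of their main transcripts 127 bases apart, and their annotated spans overlap by 1346 bases. Whether the counting used strand was not given, so reads of that overlap could be shared between them. The stretch of 250 bases before the COL4A1 start (chr13:110307158-110307407, minus strand, RefSeq promoter table on GRCh38.p14) is shown because both genes start from it, and the same length before COL5A1 (chr9:134641553-134641802, plus strand) because COL5A1 was higher in every resistant line. Capitals mark matches to the Sp1 box GGGCGG on either strand.
COL4A1 promoter: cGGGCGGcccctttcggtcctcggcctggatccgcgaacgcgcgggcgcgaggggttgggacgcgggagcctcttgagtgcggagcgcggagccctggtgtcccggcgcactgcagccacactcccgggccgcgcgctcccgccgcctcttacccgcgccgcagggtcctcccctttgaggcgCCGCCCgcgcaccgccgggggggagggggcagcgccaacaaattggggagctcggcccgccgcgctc
COL5A1 promoter: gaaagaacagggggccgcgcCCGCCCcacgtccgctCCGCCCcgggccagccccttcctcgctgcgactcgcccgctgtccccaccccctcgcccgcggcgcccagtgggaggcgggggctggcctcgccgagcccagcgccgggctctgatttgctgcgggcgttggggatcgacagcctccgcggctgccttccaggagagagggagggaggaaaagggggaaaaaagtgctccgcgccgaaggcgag
Each held 2 such matches, and 15 of the 25 described members with a promoter in the table held at least 1, against 42.3% of 27305 promoters of that length. The AP-1 site TGANTCA was in 0 of the 25 (6.60% of all promoters), the TEAD site GGAATG in 1, COL12A1 (11.9%), and the SOX site ACAAAG in 3, COL5A3, COL9A2 and COL17A1 (13.7%). A match of letters is a description of the window and no evidence of binding.

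The minor type IV chains, which replace the main pair in kidney, lung and other specialised membranes, were near the floor in most libraries. COL4A5 was read in WM278, at 681 normalised counts in sensitive and 545 in resistant cells, and was otherwise at 58.2 or fewer, with none in WM902B. COL4A3 and COL4A4, which share a start region on chromosome 2 with start sites 419 bases apart, were 10.2-fold and 9.34-fold higher in resistant WM278, at 40.4 and 239 normalised counts. COL4A6 reached 74.5 in sensitive WM278 and 50.3 in resistant WM983B and was at 3.01 or below elsewhere.

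Type VI collagen, the beaded filament around cells, was higher in 4 of 5 resistant lines for its first 2 chains. COL6A1 and COL6A2 lie 93062 bases apart on the plus strand of chromosome 21. COL6A2 held 1879, 586, 2185, 989 and 399.8 normalised counts in sensitive WM983A, WM983B, WM278, WM1617 and WM902B. After resistance the values were 809, 17683, 4307, 2096 and 3325. The exception was WM983A, 2.32-fold lower, and its resistant value lay within the sensitive range, so the groups overlapped. The folds upwards were 30.2 in WM983B, 8.32 in WM902B, 2.12 in WM1617 and 1.97 in WM278.

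COL6A2 rose across the lines by a log2 fold change of 2.22 ± 0.80 (SE, 5 lines; edgeR adjusted p = 0.638). The call was lost with the cell line as a block (1.72 ± 0.91, adjusted p = 0.505) and without WM983B, which left a log2 fold change of 0.95. COL6A1 held 2679, 1189, 2827, 1982 and 1485 normalised counts in the sensitive and 669, 10436, 3808, 4697 and 3518 in the resistant libraries. It was lower in resistant WM983A, by 4.01-fold, and higher in the other 4 lines, by 1.35-fold in WM278 up to 8.78-fold in WM983B, the same directions as COL6A2, and it did not pass (1.19 ± 0.57, edgeR adjusted p = 0.703), but was called without WM983A at 1.58.

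COL6A3, the long remaining chain, went its own way. It held 41.9, 280.0, 70.5, 30.2 and 698 normalised counts in sensitive WM983A, WM983B, WM278, WM1617 and WM902B and 62.9, 1267, 38.7, 108 and 64.6 in the resistant libraries. It was 4.53-fold higher in resistant WM983B and 3.58-fold in WM1617, both lines of metastases, and 10.8-fold lower in WM902B, where COL6A1 and COL6A2 were higher (log2 fold change 0.46 ± 1.16, edgeR adjusted p = 0.961). COL6A5 and COL6A6 were silent.

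Of the short-chain network collagens, which line vessels and the cornea, COL8A1 separated the lines sharply. It was at 1645 normalised counts in sensitive and 2219 in resistant WM278, and at 13.7 or fewer in the other sensitive libraries. In WM902B it was 9.12 in the sensitive and 2795 in the resistant library, a 306-fold difference, and the resistant WM983A, WM983B and WM1617 held 8.12, 13.3 and 1.74. A single line thus carries the difference, and the test across lines did not pass (log2 fold change 1.58 ± 2.05, edgeR adjusted p = 0.910), though without WM278 it was 6.18 and was called. COL8A2 did not pass 10.6 normalised counts outside resistant WM983B, where it was 74.2, and COL10A1, the collagen of growth plate cartilage, was silent.

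The collagens that sit on the surface of fibrils (FACIT) held the largest folds downwards. COL9A3, a chain of the type IX collagen of cartilage, held 6277, 8333, 159, 10788 and 14330.2 normalised counts in sensitive WM983A, WM983B, WM278, WM1617 and WM902B. The E+BRes libraries held 299.7, 377, 538, 19435 and 40.7. It was 20.9-fold lower in WM983A, 22.1-fold in WM983B and 352-fold in WM902B, and 1.80-fold and 3.40-fold higher in WM1617 and WM278. The lines in which it was lower were the 3 whose melanocyte marker sum was lower, SOX10 among them (5183 to 98.1 normalised counts in WM983A, 4651 to 191 in WM983B and 4831 to 10.1 in WM902B). In WM1617 SOX10 held 5214 in the sensitive and 5121 in the resistant library. In WM278, however, SOX10 held 4831 and 4154 where COL9A3 was at 159 and 538. This link between COL9A3 and the markers was not tested. With the lines in opposite directions, the test did not pass with or without the block (log2 fold change -0.95 ± 1.47, edgeR adjusted p = 0.928, and -3.09 ± 2.03, adjusted p = 0.571), but without WM1617 the unblocked value was -4.54 and was called.

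COL9A2, its partner in type IX, was lower in resistant WM983A and WM902B by 7.66-fold and 7.08-fold and within 1.22-fold in WM983B and WM1617, over a range of 0.951 to 297 normalised counts (log2 fold change -1.08 ± 1.22, edgeR adjusted p = 0.891). COL9A1, the remaining chain, did not pass 48.7. COL12A1, a FACIT of dense connective tissue, held 1487, 753, 5343, 2.17 and 242 normalised counts in sensitive WM983A, WM983B, WM278, WM1617 and WM902B and 66.3, 2272, 5565, 6.95 and 12068 in the resistant libraries. It was 22.4-fold lower in WM983A and 49.9-fold higher in WM902B, and was close to absent from WM1617 (log2 fold change 1.35 ± 1.66, edgeR adjusted p = 0.902).

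COL16A1 held 883, 627, 389.8, 78.1 and 781 normalised counts in the sensitive and 111, 773, 3104, 165 and 232 in the resistant libraries, in the same order of lines. It was 7.97-fold lower in WM983A and 7.96-fold higher in WM278, lines that moved by the same fold in opposite directions. COL19A1, a rare FACIT found near basement membranes, held 288, 330.0, 1099, 519 and 834 in the sensitive and 20.8, 117, 98.9, 654 and 238 in the resistant libraries. It was lower in 4 of 5 lines, by 2.81-fold to 13.9-fold, and 1.26-fold higher in WM1617. Unblocked it missed the threshold (log2 fold change -1.44 ± 0.76, edgeR adjusted p = 0.732), and with the cell line as a block it fell by 2.04 on the log2 scale (SE 0.65, adjusted p = 0.461). Without WM1617 the unblocked value was -2.43 and was called.

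COL22A1, a collagen of tissue junctions such as that of muscle and tendon, held 643, 576, 1161, 6.70 and 9.01 normalised counts in sensitive WM983A, WM983B, WM278, WM1617 and WM902B. In resistant cells the counts were 2.33, 384, 1481, 9.55 and 38. In WM983A it was at least 184-fold lower, while WM983B, the line of the same patient, differed by less than 2-fold. COL14A1 was at least 22.3-fold lower in WM983A and at least 60.9-fold lower in WM983B, from 77.8 and 174 normalised counts, and did not pass 13.1 in other lines. COL20A1 and COL21A1 were silent.

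COL18A1, a multiplexin of basement membranes whose end fragment is endostatin, was the most even member. It lies on the plus strand of chromosome 21 from 45405165 to 45513720. Sensitive WM983A, WM983B, WM278, WM1617 and WM902B held 1350.2, 2541, 6874, 402 and 447 normalised counts. Their resistant derivatives held 12994, 8307, 16216, 949 and 1734. The order of the lines was kept apart from WM983A, which passed WM983B, and the groups overlapped because the lines differ by more than the states do. The folds were 9.62, 3.27, 2.36, 2.36 and 3.88.

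Unblocked, the change of COL18A1 was 1.79 ± 0.95 on the log2 scale (SE, 5 lines; edgeR adjusted p = 0.732), which was not called, and without WM278 it was 2.34 and was called. With the cell line as a block COL18A1 rose by 1.87 ± 0.34 (adjusted p = 0.461), the smallest standard error of the 25 members in that fit. COL15A1, the other multiplexin, held 256, 107, 104, 19.4 and 163 normalised counts in the sensitive and 5.82, 209.8, 100.3, 42.3 and 31.8 in the resistant libraries. It was 43.9-fold lower in WM983A, where COL18A1 had its largest fold upwards (log2 fold change -0.73 ± 0.84, edgeR adjusted p = 0.892).

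COL25A1, a transmembrane collagen known from brain, held 42.3, 30.5, 13.2, 23.7 and 33.8 normalised counts in sensitive WM983A, WM983B, WM278, WM1617 and WM902B. Resistant cells had 0, 1.90, 3.87, 14.0 and 1.03. It was lower in all 5 lines, and the groups missed separating only because resistant WM1617 lay just above sensitive WM278. COL25A1 fell by 2.71 on the log2 scale (SE 0.79, 5 lines; edgeR adjusted p = 0.630) and by 3.05 with the block (SE 0.86, adjusted p = 0.461). Its counts were the lowest of the 25 members tested, at most 42 raw counts in a library. At least 10 raw counts were reached in 5 sensitive libraries and 1 resistant one, so it passed the filter through the group in which it is high.

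COL13A1, a transmembrane collagen of cell contacts, held 161, 248, 1769.8, 7.06 and 90.1 normalised counts in the sensitive and 275, 110.1, 286, 9.54 and 49.8 in the resistant libraries. It was 6.20-fold lower in WM278 and within 2.25-fold in the other lines (log2 fold change -1.64 ± 1.21, edgeR adjusted p = 0.811). COL17A1, which holds basal keratinocytes in the hemidesmosome, was read in sensitive WM278 (78.7) and resistant WM983A (80.3) and did not pass 17.7 elsewhere. COL23A1 was silent. COL7A1, the anchoring fibril of the skin, held 363, 154, 3622, 86.1 and 137 normalised counts in sensitive and 1594, 602, 1979, 66.0 and 449.8 in resistant libraries. It was 4.39-fold, 3.92-fold and 3.28-fold higher in WM983A, WM983B and WM902B, the lines with the lower melanocyte marker sum, and lower in WM278 and WM1617 by 1.83-fold and 1.31-fold (log2 fold change 0.10 ± 1.12, edgeR adjusted p = 0.991). COL26A1 and COL28A1 were silent.

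**Figure D4:**
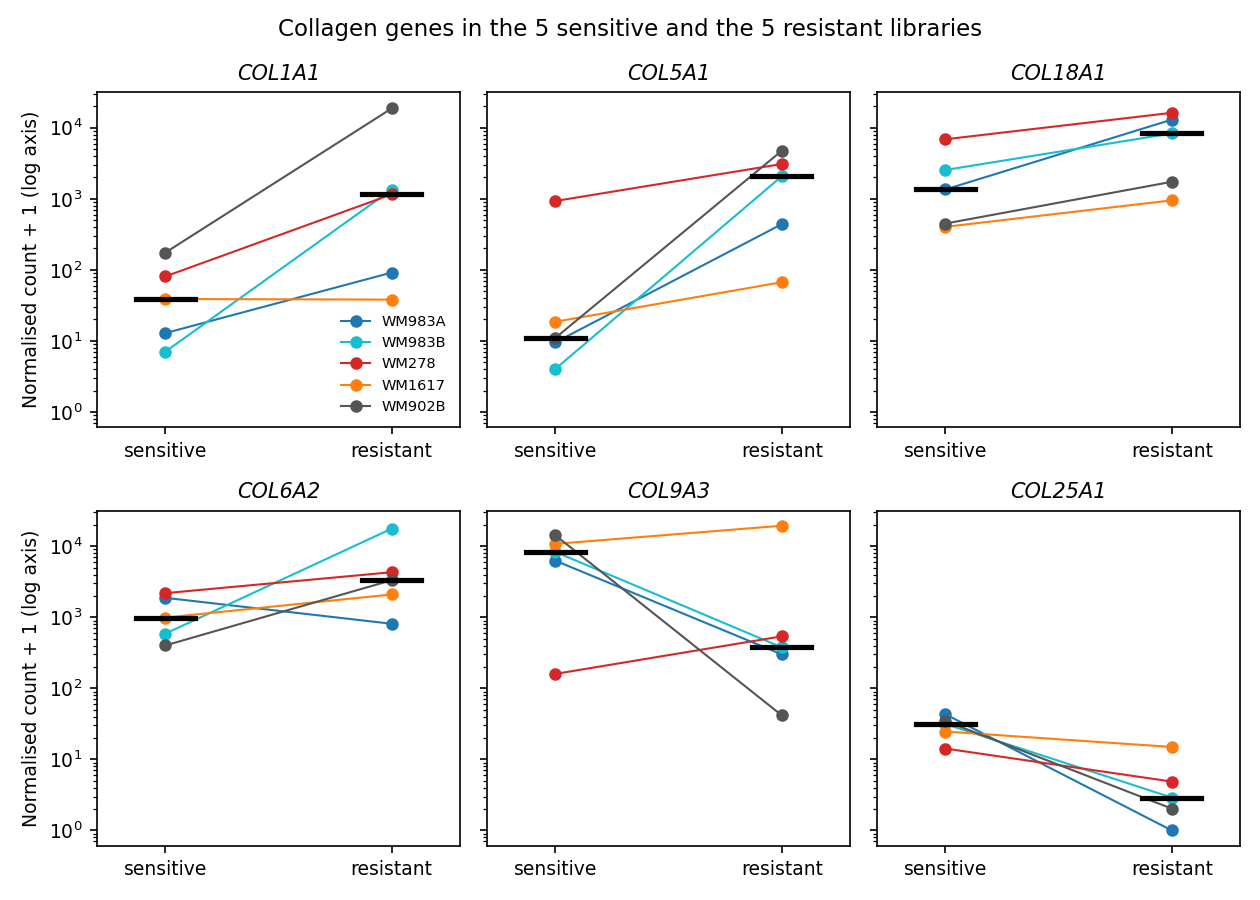
Normalised counts (1 added, log axis) of 6 collagen genes in the sensitive and resistant library of each line, joined by a line, with a black bar at the median of the 5 libraries of a state. COL5A1 and COL18A1 go up in all 5 lines and COL25A1 down in all 5, COL1A1 is level in WM1617, COL6A2 goes down only in WM983A, and COL9A3 goes up in WM278 and WM1617 and down in the other 3 lines.

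Of the pairs of chains that build 1 molecule, the main pair of type IV had the narrowest range of ratios. Per length of exon, COL4A1 stood to COL4A2 at a ratio of 0.351 to 1.31 in the 9 libraries with 20 raw counts of both, with a median of 0.536. COL6A1 stood to COL6A2 at 0.569 to 3.58 over all 10 libraries (median 1.31), and the ratio was lower in the resistant library of 4 lines, the exception being WM1617 (1.93 and 2.16). COL6A3 was scarce beside COL6A1, with a ratio of 0.00261 to 0.121 and a median of 0.00617. In WM902B that ratio was 0.121 in the sensitive and 0.00473 in the resistant library.

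The widest range was that of type V. COL5A1 stood to COL5A2 at 0.0592 in sensitive and 0.238 in resistant WM278, but at 18.2 in resistant WM983B and 65.7 in resistant WM902B, the 4 libraries with 20 counts of both. COL9A3 stood to COL9A2 at 40.3 to 102 in the sensitive libraries of 4 lines, at 86.1 in resistant WM1617, at 4.79 in resistant WM983B and at 0.844 in resistant WM902B. For COL1A1 with COL1A2 and COL8A1 with COL8A2 no library had 20 counts of both.

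**Figure D5:**
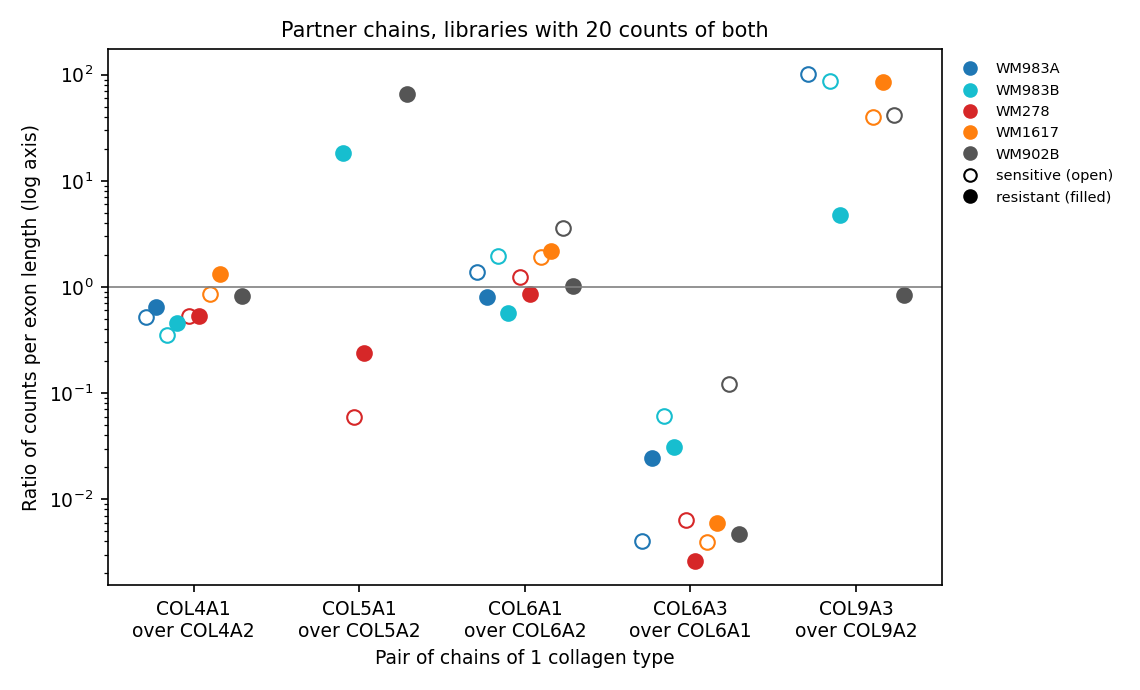
Ratio of counts per exon length (log axis) between chains of 1 collagen type, for libraries with at least 20 raw counts of both chains (open, sensitive; filled, resistant; colour, cell line). COL4A1 over COL4A2 stays between 0.351 and 1.31, while COL5A1 over COL5A2 runs from 0.0592 to 65.7.

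The effect of resistance was compared between the 3 lines of primary tumours and the 2 of metastases through an interaction term. COL5A3 alone of 25 members was called (0.931% of all genes): its change in the metastatic lines exceeded that in the primary lines by 4.66 ± 1.46 on the log2 scale (edgeR adjusted p = 1.00 over all genes). Without WM983A the difference was 4.02 and was not called, and COL24A1 was called in the opposite direction (-3.82). In the values above, these are the lower values of COL5A3 in resistant WM983A, WM278 and WM902B against level ones in WM983B and WM1617. With the cell line as a block, COL5A3 (4.43), COL6A3 (3.22) and COL19A1 (2.43) were called (1.79% of all genes). Each value is the change with resistance in the metastatic lines minus that in the primary lines, and does not compare their levels. Of 17287 genes none passed adjustment in either fit, where 166 and 319 had an unadjusted p below 0.05.

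Enzymes that build and cut collagen, and its receptors, were read as a list of 42 genes, of which 35 were tested. Of these, 2 rose and 1 fell at an unadjusted p of at most 0.05 and at least 2-fold, against 4.42% of all genes, and none passed adjustment in edgeR. DESeq2 called 1, ADAMTS14, after adjustment. The median log2 fold change of the 35 was 0.12.

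ADAMTS14, a protease that trims the amino end of procollagens, held 1.56, 15.1, 0, 34.6 and 4.05 normalised counts in sensitive WM983A, WM983B, WM278, WM1617 and WM902B and 24.4, 475, 4.73, 10.4 and 1133 in the resistant libraries. It was thus highest in resistant WM902B and WM983B, the libraries with the most COL1A1, and lower when resistant in WM1617. ADAMTS14 rose by a log2 fold change of 4.88 ± 1.68 (edgeR adjusted p = 0.630). MRC2, the receptor through which cells take up collagen, held 230.2, 937, 1682, 1422 and 1470 in the sensitive and 1450.4, 9315, 1151, 1630 and 5810 in the resistant libraries, and rose by 1.75 ± 0.69 (adjusted p = 0.675).

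ADAMTS3, a related procollagen protease, fell by 1.31 on the log2 scale (SE 0.56, edgeR adjusted p = 0.686), being lower in every resistant line but WM1617. PCOLCE, which speeds removal of the carboxyl end, had the second largest change of the list and did not pass (log2 fold change 1.77, edgeR adjusted p = 0.844), with 3459 normalised counts in resistant against 72.7 in sensitive WM902B. Some genes of hydroxylation, glycosylation and folding are named with their values known. The chaperone SERPINH1 was lower in all 5 resistant libraries by a fitted log2 fold change of -0.51 ± 0.43. P4HA1, of prolyl hydroxylation, was at 0.02 ± 0.55, and neither of them was called. Others of that role went the other way, with P4HA2, P3H4 and FKBP10 each higher in 4 of the 5 lines. All 3 calls of this list were lost when WM902B was left out. With the cell line as a block ADAMTS14 and MRC2 were still called, ADAMTS3 was not (-1.35, SE 0.67, adjusted p = 0.494), and PLOD3, a lysyl hydroxylase lower in all 5 lines, fell by 1.13 (SE 0.35, adjusted p = 0.461).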

How the data were processed

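RNA-Seq of 10 libraries, 5 sensitive cell lines and their 5 resistant derivatives with 1 library each, was analysed from the processed tables. Per the labels and the study's methods, libraries were made from oligo-dT enriched mRNA, sequenced single-end, aligned with HISAT2 to GRCh38 and quantified per Ensembl gene in StrandNGS; versions, strand setting and the handling of reads shared by genes were not given in the sources used here. The authors deposited 2 columns per library: estimated counts per gene that were not normalised (24% of the non-zero values were whole), and log2 values normalised by the authors with the DESeq algorithm and set to 0 in the sensitive library of each line. The deposited log2 values served here only to rebuild 455 counts of sensitive WM983B that had been turned into dates, none of them a collagen gene; 451 fitted the digits still visible to within 0.01.

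The estimated counts were rounded and tested with edgeR 4.0.16 (R 4.3.3; filterByExpr, TMM, quasi-likelihood test, two-sided, standard errors from the F statistic), resistant against sensitive over all 17287 genes that passed the filter, with Benjamini-Hochberg adjustment over all of them. A call is an unadjusted p of at most 0.05 with at least 2-fold. Log2 ratios within a line used normalised counts with 1 added. Library totals of 13693922 to 18033247 counts put the floor of 3 counts at 0.166 to 0.219 CPM. Gene spans, exon lengths and exons came from GENCODE 44 and promoters from RefSeq (25 of 33 described members matched). Protein sequences were not used here.

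Members with at least 500 raw counts in any library (21) were to be given in full and the other 12 by range; of the enzyme and receptor list, called genes and the 3 largest changes were named. The members, classes and lists were chosen with earlier results of these data known. Both states of a line share a cell line, which pairs the libraries; the deviations of the pair correlated at r = -0.0682 in WM983A and at 0.374 to 0.675 in the other lines. Alternatives were RLE factors, no filter, DESeq2 1.42.0, limma 3.58.1 on log2 values, the cell line as replicate block, counts summed per patient (3 against 3), each line left out and the damaged genes left out. DESeq2 and limma with the block, and the summed level without COL9A3, were added after seeing the data. The fits were tested on simulated data with known changes.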

Additional observations from a re-analysis of the deposited data

Results flagged for a closer look

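In groups of 5 libraries a library was listed when its gap to the nearest other passed Dixon's value of 0.71. The gap was divided by the range of the group on the log2 scale. Of 42 groups examined (21 members in 2 states), 5 were listed. The groups share the same libraries and are not independent, so this number was not set against chance. The 21 members had at least 500 raw counts in any library. COL11A1 reached that only in WM278, so its listing was partly set by the choice of members. All 5 concern WM278. It was the highest sensitive library for COL5A1 (ratio 0.719), COL8A1 (0.791) and COL11A1 (0.982), the highest resistant library for COL11A1 (0.835), and the lowest sensitive library for COL9A3 (0.816). WM278 also had the lowest melanocyte marker sum of the sensitive libraries, 6506 normalised counts against 30859 to 68242 in the others, and its part in these values was not tested. Leaving out WM278 moved the log2 fold change of COL5A1 from 3.42 to 7.53.

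COL5A3 was listed because the effect of resistance differed between tumour stages, by 4.66 on the log2 scale (metastatic minus primary lines, edgeR adjusted p = 1.00 over 17287 genes). Without WM983A the difference was 4.02 and did not pass. The values behind this listing were 8.51-fold to 53.3-fold lower in the 3 primary lines and within 1.15-fold in the 2 metastatic ones, and are no separate check of it. In WM1617, 1 of the metastatic lines, few genes differed between the states (3.66% at least 2-fold higher and 5.92% lower). Each stage holds lines of 2 patients or more, but both metastatic lines have a primary line of the same patient in the comparison.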

How the results depend on the processing

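The count of called members was 3 of 25 tested (4.42% of all genes). It was 7 of 44 with no filter on low counts (5.90%), 5 of 25 with DESeq2 (5.21%) and 6 of 25 with limma on log2 values (3.75%). The replicate block gave 5 of 25 (5.53%) and counts summed per patient 5 of 29 (5.27%). DESeq2 with the block gave 9 of 25 (8.62%) and limma with the block 6 of 25 (6.37%). With each line left out it was 3 to 6, of 24 or 25 tested. Over all genes the same runs called 420 of 17376 without WM902B up to 1493 of 17424 without WM1617. The 6 members were called without WM278, of 24 tested, beside 841 of 17306 genes. Adjusted calls among the members were 0 except 6 with DESeq2 and the block. Over all genes the count of 764 became 2258 with no filter and 1491 with DESeq2 and the block, and ran from 420 to 1493 with each line left out; adjusted calls were 0 except 105 with DESeq2 and 510 with DESeq2 and the block. The list of enzymes and receptors gave 3 calls of 35 tested. It gave 5 of 40 with no filter, 1 of 35 with limma, 5 of 37 with patient sums and 5 of 35 with DESeq2 and the block. The shares of all genes called in those fits are the ones given above. It gave 0 to 5 calls with each line left out, beside the counts over all genes given above for those runs. DESeq2 gave 1 adjusted call without the block (0.607% of all genes) and 1 with it (2.95%). The comparison of stages gave 1 called member (0.931% of all genes), 3 with the replicate block (1.79%), 5 with no filter and 1 to 4 with each line left out. In WM1617 the members at least 2-fold higher were 10 (3.66% of all genes with 20 counts), and fewer with 5 added to the counts. Without the most abundant collagen of each library the summed log2 ratio was -0.71 in WM983A and 2.11 in WM902B, and without COL9A3 it was 2.79 in WM902B. The cause of these shifts was not tested. No called member changed its direction in any alternative run. COL6A2 was not called without WM983B (log2 fold change 0.95), and COL25A1 and COL1A1 were called with each line left out. DESeq2 without the block gave no p for COL1A1, COL4A5 and COL5A2. RLE factors and leaving out damaged genes kept the count of called members at 3.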
